A study of Mus musculus with 16 samples.

Results

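The 33 genes described here encode the digestive enzymes that pancreatic acinar cells make, the proteins of their secretory granules, and the transcription factors and the receptor that characterise these cells. They were taken by name from a fixed list, all 33 were found among the 54146 gene entries of the files, and 32 of them were among the 15204 genes that entered the tests. Amy2b, which the annotation used lists as an unprocessed pseudogene, was described with the others and tested only after it had been added to the tested genes. The samples were whole pancreatic islets of 26-week-old mice, all on a high-fat diet, from the 8 founder strains of the Diversity Outbred population: 129S1_SvImJ (129), A_J (AJ), C57BL/6J (B6), CAST_EiJ (CAST), NOD_ShiLtJ (NOD), NZO_HlLtJ (NZO), PWK_PhJ (PWK) and WSB_EiJ (WSB). Each strain was sampled in both sexes, giving 16 samples with 91 RNA-seq libraries: 10 of 129, 14 of AJ, 18 of B6, 14 of CAST, 10 of NOD, 4 of NZO (1 male), 5 of PWK (1 female) and 16 of WSB. None of the groups carried a transgene or an induced allele, and no group was untreated, so each strain was compared with the unweighted mean of the other 7. The labels do not state that each library came from a separate mouse, so that p-values measure the spread between libraries.

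Acinar cells synthesise most digestive enzymes as inactive precursors, store them in zymogen granules and release them when cholecystokinin or nerve signals reach the cell. The transcription factor PTF1, built from PTF1A, an E-protein partner and RBPJL, drives many enzyme genes, and BHLHA15 (MIST1) and NR5A2 help to maintain the secretory state. Islets are freed from the exocrine tissue by digestion and picking, so acinar transcripts in an islet library come with whatever exocrine material stayed attached. In such bulk libraries a larger number of acinar cells and more RNA per acinar cell cannot be told apart.

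The promoters of 4 members that the results turn on are given first: Cpa1, the carboxypeptidase used as the measure of exocrine content, Ctrl, which was almost absent in PWK, Prss1, the trypsinogen with the widest range between strains, and Rbpjl, the acinar subunit of PTF1. PTF1 is known to bind a bipartite site made of an E-box and a TC-box. Each window runs from 250 bases before to 50 bases after the gene's start, 5′ to 3′ on the strand of the gene, from RefSeq on GRCm38.p6. Capitals mark every match on either strand to the E-box CANNTG and to the TC-box core TTTCCC.
Cpa1, chr6:30638968-30639267, plus strand: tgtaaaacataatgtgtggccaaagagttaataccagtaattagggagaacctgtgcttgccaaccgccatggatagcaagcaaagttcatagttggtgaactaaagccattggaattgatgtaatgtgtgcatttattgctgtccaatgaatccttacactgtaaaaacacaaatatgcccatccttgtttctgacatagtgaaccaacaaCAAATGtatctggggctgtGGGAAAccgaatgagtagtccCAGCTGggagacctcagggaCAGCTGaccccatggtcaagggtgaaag
Ctrl, chr8:105933813-105934112, minus strand: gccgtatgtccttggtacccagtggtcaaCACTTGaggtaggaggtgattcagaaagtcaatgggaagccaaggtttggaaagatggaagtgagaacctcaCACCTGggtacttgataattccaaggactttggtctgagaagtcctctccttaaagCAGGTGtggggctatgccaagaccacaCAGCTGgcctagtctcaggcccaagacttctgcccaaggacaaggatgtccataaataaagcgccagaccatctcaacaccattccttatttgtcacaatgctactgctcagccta
Prss1, chr6:41458680-41458979, plus strand: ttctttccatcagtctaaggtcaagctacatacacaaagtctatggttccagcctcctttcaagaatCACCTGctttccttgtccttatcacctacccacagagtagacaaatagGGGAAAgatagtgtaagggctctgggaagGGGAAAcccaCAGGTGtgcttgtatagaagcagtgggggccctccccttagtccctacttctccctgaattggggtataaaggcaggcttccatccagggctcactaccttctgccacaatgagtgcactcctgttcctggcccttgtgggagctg
Rbpjl, chr2:164402944-164403243, plus strand: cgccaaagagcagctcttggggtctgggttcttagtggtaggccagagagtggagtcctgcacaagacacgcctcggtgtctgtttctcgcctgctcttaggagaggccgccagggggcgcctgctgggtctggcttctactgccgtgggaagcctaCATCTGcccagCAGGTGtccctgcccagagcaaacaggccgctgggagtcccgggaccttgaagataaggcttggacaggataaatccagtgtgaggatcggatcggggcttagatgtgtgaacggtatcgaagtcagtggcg
The windows of Cpa1 and Prss1 held both motifs within 30 bases of each other, and those of Ctrl and Rbpjl held E-boxes but no TC-box core. A match to one motif can share its end letter with a match to the other, and pairs that share a letter were not counted as lying within 30 bases. An E-box match was present in 72.3% of all 32851 promoter windows and a TC-box core in 25.2%, and both lay within 30 bases in 6.5%. Of the 26 members with a window among those counted, 21 held an E-box, 8 a TC-box core and 4 both within 30 bases. These windows are of the reference strain, and the sequences of the other strains were not analysed here.

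Acinar transcripts made up a highly variable part of the islet libraries, and the amount differed between strains. The summed TPM, a length-scaled share of a library's transcripts, of the 33 genes ranged from 0.233% of a library in an AJ female to 38.6% in an NOD male, with a median of 7.12% over the 91 libraries. AJ was lowest, with a lowest value of 0.233%, a median of 0.768% and a highest value of 2.77%. The median was 2.78% in 129 (0.898% to 7.30%), 7.83% in B6 (0.783% to 35.4%) and 9.44% in WSB (1.15% to 26.4%). It was 11.9% in NZO (1.26% to 15.6%), 13.4% in PWK (5.99% to 35.8%), 14.0% in NOD (3.69% to 38.6%) and 14.4% in CAST (2.09% to 35.4%). Without the trypsinogens and amylases the medians were 0.55% in AJ, 1.96% in 129, 5.79% in B6 and 6.88% in WSB. They were then 7.66% in NZO, 8.70% in CAST, 9.44% in PWK and 9.46% in NOD, so the order of the highest strains depended on the genes summed. AJ and 129 had the lowest medians, but the range of 129 overlapped those of all other strains and that of AJ overlapped all but NOD and PWK. Islet identity was clear in every strain: 8 endocrine markers (among them Ins1, Ins2 and Gcg) summed to between 181800 and 593200 TPM, with none of them at 0 in a whole strain. The total per library was 16928552 to 35196145 expected counts (median 27485367), and the lowest members rested on few reads, as in AJ, where the median count was 5.5 for Ptf1a and 15.3 for Prss1. The labels name waves of sequencing without saying which library was in which; libraries of 129, NOD, NZO and PWK all carry numbers above 65, so number range and strain cannot be told apart for them. In the 4 other strains the medians for numbers 1 to 32 and 34 to 65 were 0.921% and 0.642% in AJ, 8.98% and 3.60% in B6, 12.7% and 21.6% in CAST and 8.84% and 10.4% in WSB.

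**Figure D1:**
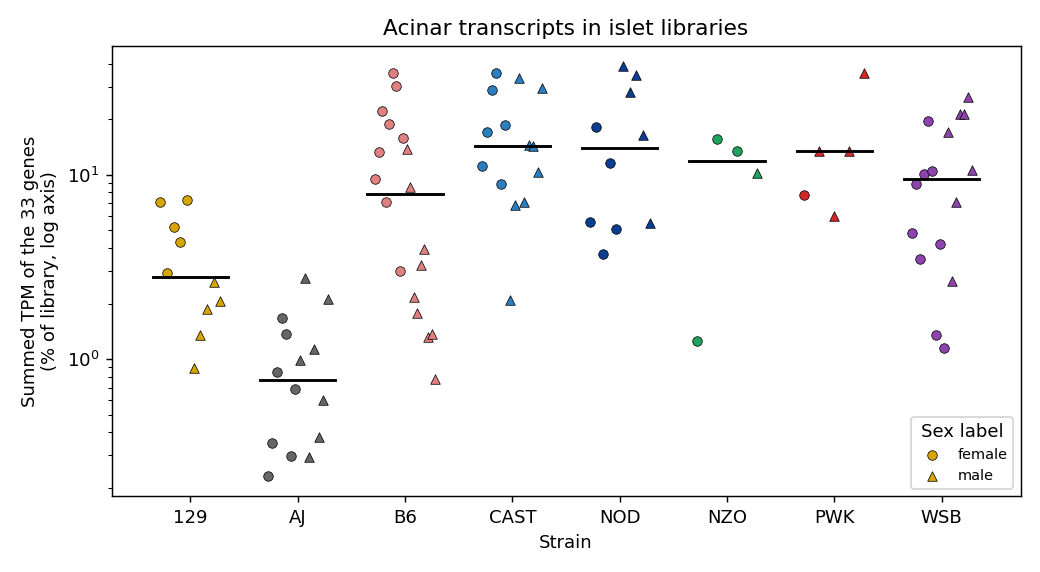
Summed TPM of the 33 acinar genes as a percentage of each library (vertical, log axis) by strain (horizontal); each point is 1 library, circles are labelled female and triangles male, and the line is the strain median. The 14 AJ libraries lie between 0.233% and 2.77%, and the strain medians run from 0.768% in AJ to 14.4% in CAST.

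Cpa1 (carboxypeptidase A1, chr6:30639218-30645363) was also lowest in AJ and 129. Its level had a median of 446 TPM in AJ (129 to 1655), 1452 in 129 (490 to 4399) and between 5109 and 7478 in the 6 other strains. In the edgeR quasi-likelihood fit, with p-values adjusted over all genes by Benjamini-Hochberg, Cpa1 fell by 3.66 ± 0.56 (SE) on the log2 scale in AJ against the mean of the others (12.6-fold lower, adjusted p = 5.25e-08). It was 2.92-fold higher in NOD (log2 1.55 ± 0.46, adjusted p = 0.00235). The strain effect passed the threshold of 0.05 for 31 of the 32 members, against 97.4% of all genes tested, so the count itself sets the members apart little, and the direction carries the description. All 32 members were lower in AJ (background 32.1% of genes lower) with a median log2 difference of -3.71, while the median over all genes was -0.04. In 129, 26 of 32 were lower (background 21%), with a median of -1.67. In NOD 27 were higher (background 35.8%) and in CAST 27 (background 26.7%), with medians of 1.38 and 1.30. In B6, 14 were higher (background 25.6%), in PWK 10 (background 23.2%) and in WSB 6 (background 26.6%). Some members went the other way: 2 were lower in B6, 2 in PWK, 3 in WSB, 1 in NOD and 1 in CAST, and 1 was higher in 129. NZO had 2 higher (background 20%) and 2 lower (background 14.2%). Of the 10 libraries of 129, 6 had sex-linked transcripts that went against their sex label: without the 12 such libraries of all strains, 3 members passed as lower in 129, while the median difference, -1.68, was about as large with the 4 libraries left. The B6 count was 3 with limma-voom, and that in PWK was 2 without male library 69. The WSB count was 10 without the same library and 12 without 6 libraries that stand apart, which were chosen after seeing the data.

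Within strains the members rose and fell together with Cpa1, and nearly in proportion. The fit held strain and sex constant and gave each gene a slope on log2 Cpa1, where 1 means a proportional change and 0 none. The slope was positive in 30 of 31 members, against 13.7% of all genes, and its median was 0.98 beside -0.01 for all genes. For 24 members it lay between 0.9 and 1.1, as for Prss2 (0.99 ± 0.01, SE), Pnlip (1.00 ± 0.01) and Rnase1 (0.99 ± 0.01). The 5 smallest slopes were those of Dnase1 (-0.04 ± 0.02, adjusted p = 0.157), Bhlha15 (0.28 ± 0.03), Nr5a2 (0.59 ± 0.03), Amy1 (0.73 ± 0.04) and Ctrc (0.84 ± 0.04). The slope is 1 value over all strains and was not fitted by strain. Where Amy1 or Ctrc was abundant, its log2 ratio to Cpa1 could be steady: -4.24 to -3.82 (Amy1 in NOD) and -1.76 to -1.52 (Ctrc in 129). In CAST, where both were abundant, it was -2.88 to -1.57 for Amy1 and -2.37 to -0.81 for Ctrc. Where they were low it could spread more, from -9.64 to -7.08 (Amy1 in 129) and -6.44 to -3.77 (Ctrc in AJ). Another list of 15 acinar genes outside the 33, including the elastase genes, had positive slopes in 15 of 15, with a median of 0.98. The lists of other cell types moved little with Cpa1: of 8 endocrine markers 0 had a positive and 1 (Iapp, -0.03) a negative slope, of 8 endothelial and stromal markers 0 and 4, of 7 immune markers tested 0 and 1, and of 3 Schwann cell markers 0 and 0. Duct markers differed, with positive slopes in 6 of 7, a median of 0.37 and a highest value of 0.76 for Muc1.

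**Figure D2:**
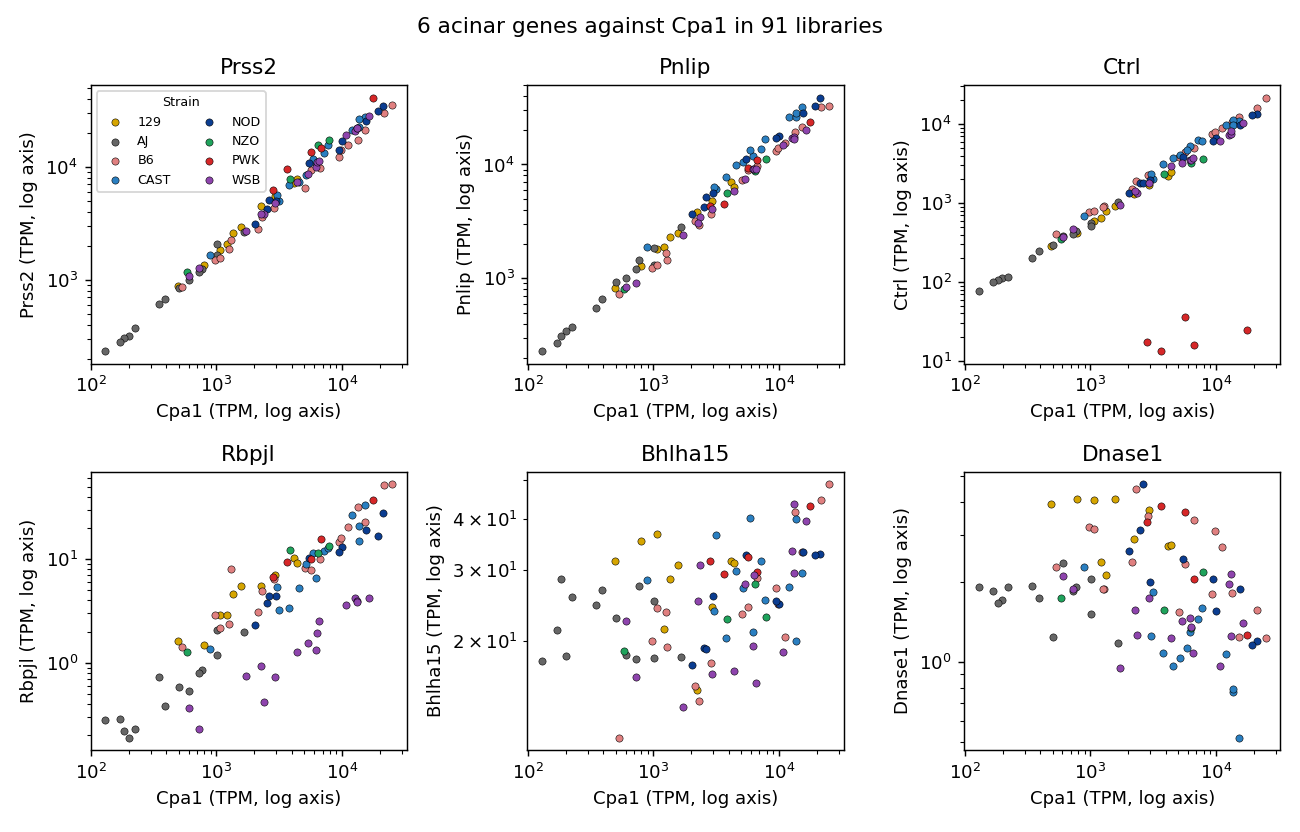
TPM of 6 members (vertical, log axis) against TPM of Cpa1 (horizontal, log axis) in 91 libraries coloured by strain. Prss2 and Pnlip rise in proportion to Cpa1 in all strains, Ctrl does so except in the 5 PWK libraries at 13.5 to 35.8 TPM, Rbpjl lies lower in WSB, and Bhlha15 and Dnase1 stay nearly level.

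**Figure D3:**
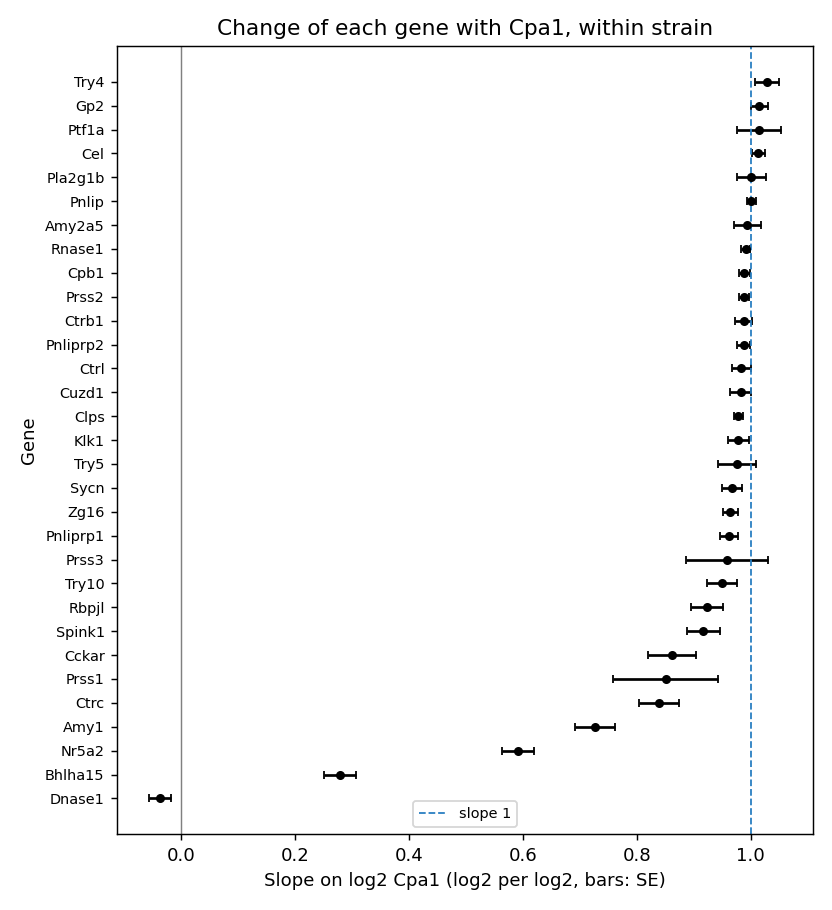
Slope of each of the 31 other tested members on log2 Cpa1 (horizontal, log2 per log2) from the fit with strain and sex; points are estimates and bars their standard errors. Most lie near the dashed line at 1, with Dnase1 at -0.04 and Bhlha15 at 0.28.

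Since nearly all members varied with Cpa1, strains were next compared at equal Cpa1, by adding log2 Cpa1 to the model, and each library's ratio of a member's TPM to that of Cpa1 was described beside it. All 31 members still differed between strains at equal Cpa1, as did 97.3% of all genes. Of 248 member and strain combinations 167 passed the threshold, against 51.4% of the combinations over all genes, and 49 of them differed by 1 log2 unit or more, in 15 members, against 9.48% over all genes. Each strain was set against the mean of the others, so a large value in 1 strain also shifts the rest, and the 49 are not separate events. Ctrc, for example, was low in AJ and B6 and counted as higher in NZO, NOD, CAST, WSB and PWK (log2 1.1 to 2.2). With the slope on Cpa1 fixed at 1 the counts were smaller: 17 members differed between strains, and 31 combinations were higher and 31 lower, in place of 81 and 86. That setting, here and below, was a limma fit of log2 ratios to Cpa1 in place of the edgeR fit, so tool and slope changed together. How much of a lost call came from the tool and how much from the slope was not tested. The setting assumes a proportional change of every gene, and under it 99% of all genes were higher in AJ and 84% lower in CAST. The SE of the members' differences was larger than with the fitted slope, with a median ratio of 3.11. The SE was derived in different ways, from the estimate and its F statistic in edgeR and from the moderated variance in limma. Of the 110 calls lost, 96 moved by less than 0.1 on the log2 scale. The 5 largest differences were Ctrl in PWK, Amy1 in CAST, Prss3 in NZO and Prss1 in CAST and NZO. The NZO entries rest on its single male, without which they were 3.39 and 2.07, smaller in size than Ctrc in B6 (-4.93).

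**Figure D4:**
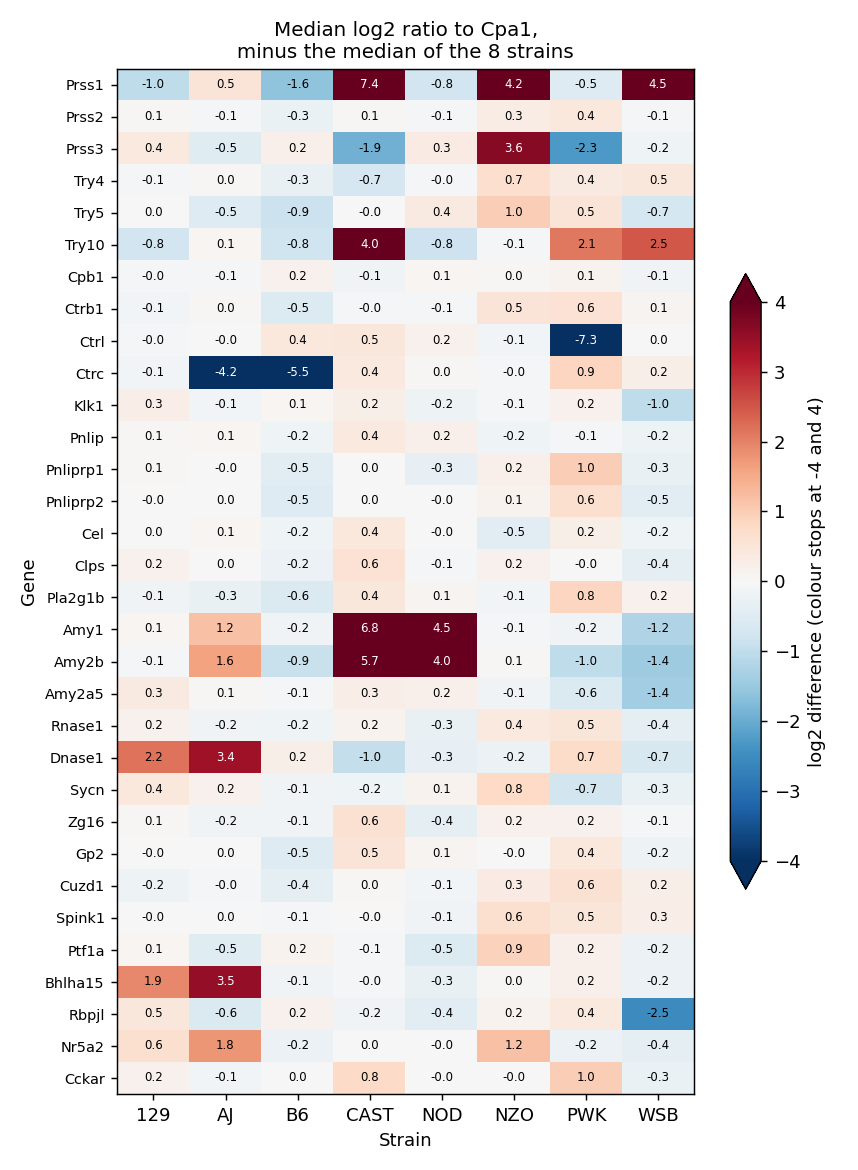
Median log2 ratio to Cpa1 of each of 32 members (rows) in each strain (columns), minus the median of the 8 strain medians of that gene; red is higher, blue lower, and colours stop at 4 in both directions. Single cells stand out, such as Ctrl in PWK, Ctrc in AJ and B6, Prss1 in CAST and Amy1 and Amy2b in CAST and NOD; the high AJ and 129 values of Dnase1, Bhlha15 and Nr5a2 belong to genes that did not change in proportion to Cpa1.

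The trypsinogens, precursors of the protease that activates the other zymogens, lie in 1 cluster on chromosome 6, from 41302269 (Try4) to 41525079 (Prss2). Prss2, the most abundant with a mean of 9667 TPM, kept close to Cpa1: its median log2 ratio ran from 0.53 in B6 to 1.21 in PWK, and its differences at equal Cpa1 lay between -0.36 (B6) and 0.44 (PWK). Try4 and Try5 were abundant in every strain, with medians from 245 to 11740 TPM. Their largest differences were in NZO, where Try5 was 2.38-fold (log2 1.25 ± 0.20, adjusted p = 4.26e-07) and Try4 1.66-fold higher (log2 0.73), which did not pass with Ctrb1 in place of Cpa1 (0.25, adjusted p = 0.107). With the slope on Cpa1 fixed at 1 the Try5 difference was as large (1.27) but did not pass the threshold (adjusted p = 0.41).

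Prss1, by contrast, was nearly silent in 5 strains and abundant in CAST. It had a median of 0.94 TPM in 129, 0.925 in AJ, 1.99 in B6, 7.50 in NOD and 5.14 in PWK, with 1 library of 129 and 2 of AJ listed at 0. In CAST the lowest library had 102 TPM, the median was 1099 and the highest 3782, and in WSB these values were 10.5, 170 and 430. At equal Cpa1 it was 66.4-fold higher in CAST (log2 6.05 ± 0.32, adjusted p = 5.59e-30) and 6.38-fold higher in WSB (log2 2.67 ± 0.28, adjusted p = 1.32e-13). The NZO value turned on 1 library: Prss1 was at 23.2, 16.2 and 74.4 TPM in the females (libraries 86, 88 and 89) and at 2590 TPM in the only male, library 90. The NZO difference of 5.61 ± 0.36 (log2, 49-fold higher) became 2.07 without that male, still past the threshold (adjusted p = 0.00024).

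Prss3 behaved in the same way in NZO, with 79.1, 245 and 487 TPM in the females and 6003 in the male. Its difference at equal Cpa1 was 6.06 ± 0.30 (log2, 66.9-fold higher, adjusted p = 8.69e-31) and 3.39 without the male. In PWK it was 7.58-fold lower (log2 -2.92 ± 0.56), with 4.74 to 27.8 TPM. Its smaller differences in AJ and CAST were lost among AJ, B6, CAST and WSB alone, and the one in AJ also without the NZO male.

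Try10 separated CAST, WSB and PWK from the rest. Its ratio to Cpa1 was -1.94 to -0.50 in CAST (log2, median -1.24), above each library of the other strains, whose highest was -2.47. The median was -2.75 in WSB and -3.12 in PWK, against -5.16 to -6.05 in the other 5 strains. At equal Cpa1 it was 14.2-fold higher in CAST (log2 3.82 ± 0.10), 3.80-fold higher in WSB (1.93 ± 0.09) and 2.91-fold higher in PWK (1.54 ± 0.15) (adjusted p = 9.36e-51, 4.73e-32 and 1.85e-15).

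These genes are close copies, so their levels are uncertain. Of the different 100-base windows in the annotated transcripts, 45% of those of Prss3, 30.2% of Try4, 22.5% of Try5, 21.8% of Prss1 and 11.6% of Try10 also occurred in another gene, and none of Prss2. Prss1 and Prss3 share windows with the trypsinogen-like loci Gm5771 and Gm10334, which stood at 4536 and 3812 TPM in the NZO male and at no more than 170.8 and 149.5 TPM in the females, and Gm5771 had a median of 229.6 TPM in CAST. Gm5409, which shares windows with Try10, had medians of 631, 476 and 244 TPM in CAST, WSB and PWK and of at most 0.65 TPM elsewhere. The sum of the 6 trypsinogens and these 3 loci, which depends less on how reads were divided among them, had a log2 ratio to Cpa1 between 1.52 (B6) and 2.58 (NZO) in strain medians and 3.61 in the NZO male. How far strain differences in sequence against the reference changed the counts was not tested.

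Among the other proteases, Ctrb1 (chymotrypsinogen B) was the most abundant member, with a mean of 21960 TPM. Its ratio to Cpa1 was lowest in B6 (median log2 1.42) and highest in PWK (2.53) and NZO (2.46), and it differed at equal Cpa1 by -0.67 ± 0.06 in B6, 0.57 ± 0.09 in PWK and 0.43 ± 0.10 in NZO. The PWK and NZO calls for Ctrb1 were lost with the slope on Cpa1 fixed. Cpb1 (carboxypeptidase B) stayed within -0.22 and 0.19 in all 8 strains.

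Ctrl (chymotrypsin-like protease, chr8:105932003-105933862), whose promoter is given above, was almost missing in PWK. The PWK libraries had 13.5 (female 75), 35.8 (male 66), 17.5 (male 67), 15.8 (male 68) and 24.5 TPM (male 69), whereas Ctrb1 in the same libraries reached 16650 to 102100 TPM. No PWK library overlapped any other: the log2 ratio to Cpa1 was -9.50 to -7.31 in PWK and -1.13 to -0.21 in the other 86 libraries. At equal Cpa1 it was 166-fold lower (log2 -7.37 ± 0.17, adjusted p = 8.48e-56), and the value stayed between -7.96 and -7.15 under the alternatives that gave one for PWK. Because each strain is set against the mean of the others, the low PWK value raises the estimates of the remaining strains by about 1 log2 unit, and their median ratios themselves spanned only -0.87 to -0.32. Whether differences of the PWK sequence from the reference lowered the Ctrl counts was not tested.

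Ctrc (chymotrypsin C, also called caldecrin, chr4:141814962-141846359) was low in both AJ and B6. The AJ libraries held 5.02, 11.7 and 19.04 TPM (lowest, median and highest) and the B6 libraries 10.5, 37.9 and 182, while the medians of the other strains ran from 479 in 129 to 3415 in PWK. The ratio to Cpa1 had a median of -7.03 in B6 and -5.71 in AJ, and no library of these strains rose above -3.77, whereas none of the others fell below -2.37. At equal Cpa1, Ctrc was 30.4-fold lower in B6 (log2 -4.93 ± 0.18, adjusted p = 4.68e-41) and 12.8-fold lower in AJ (-3.68 ± 0.22, adjusted p = 6.70e-26). A fit of AJ, B6, CAST and WSB alone, with a term for the range of library numbers, gave -4.10 and -2.92. There the mean of the other strains held fewer strains and included the other low one, so these values are not directly comparable. Of its 100-base windows, 13.8% also occur in Cela2a, an abundant elastase gene. Klk1 (tissue kallikrein) was 2.11-fold lower in WSB (log2 -1.08 ± 0.07, adjusted p = 7.25e-23), where its ratio to Cpa1, -3.90 to -3.29, lay below that of every other library (-3.02 to -1.27).

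**Figure D5:**
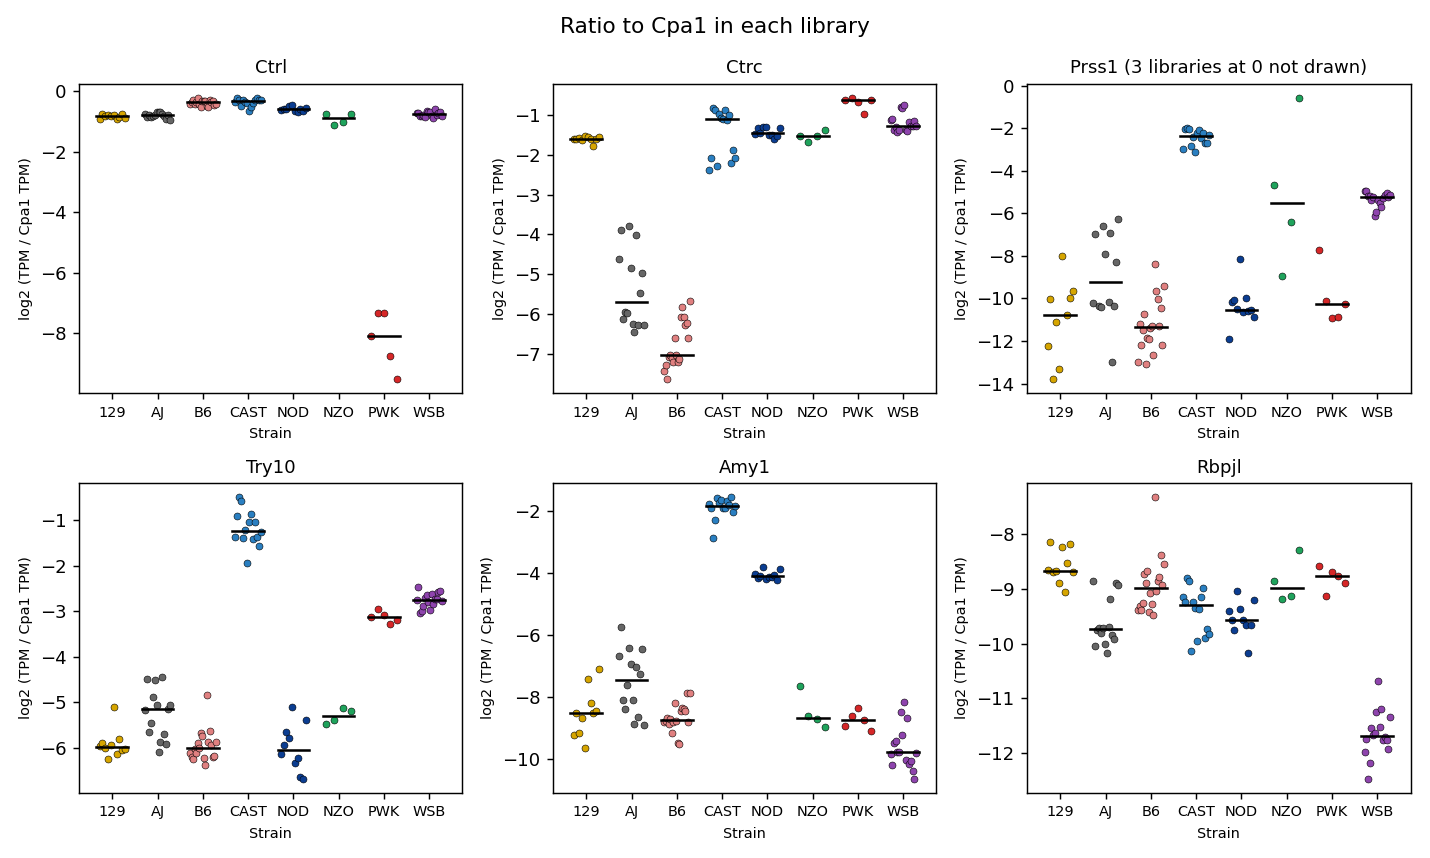
Log2 ratio of TPM to Cpa1 TPM (vertical) for 6 members in each library, by strain (horizontal); points are libraries and lines strain medians, and 3 libraries with Prss1 at 0 are not drawn. Ctrl is low in PWK, Ctrc in AJ and B6 and Rbpjl in WSB, Try10 and Amy1 are highest in CAST, and 1 NZO library has Prss1 at -0.56 while its 3 companions lie between -8.93 and -4.65.

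The lipases and their cofactors differed less. Pnlip (pancreatic triglyceride lipase), the most abundant of them with a mean of 9136 TPM, had median ratios between 0.47 (WSB) and 1.04 (CAST). Of the 6 genes, 6 were lower in B6, 5 lower in WSB, 4 higher in CAST and 4 higher in PWK at equal Cpa1 (over all genes 28.9%, 29.8%, 25.9% and 24.2%), all by less than 1 log2 unit except 2 in PWK. When the slope on Cpa1 was fixed, 1 gene passed as lower in B6 and 0 in WSB (10.9% and 8.0% of all genes), and 2 as higher in CAST and 0 in PWK (0.717% and 0.289%). With Ctrb1 in place of Cpa1, B6 had 1 lower and 3 higher (28.8% and 26.0% of all genes) and WSB 5 lower (29.8%). CAST then had 5 higher (26.0%), and PWK 3 higher and 3 lower (23.8% and 23.5%). In PWK at equal Cpa1, Pnliprp1 (pancreatic lipase-related protein 1, log2 1.1 ± 0.09, 2.15-fold) and Pla2g1b (pancreatic phospholipase A2, 1.01 ± 0.14, 2.01-fold) were higher. With the slope on Cpa1 fixed at 1 these differences were nearly the same, 1.08 and 1.04, but did not pass the threshold (adjusted p = 0.116 and 0.164). Their lowest values among the alternatives were 0.57 and 0.43. The PWK ratios of Pnliprp1 (0.38 to 0.76) and Pnliprp2 (-2.80 to -2.54) lay above those of all other libraries, whose highest values were 0.29 and -2.95. Clps, the colipase that anchors lipase to fat droplets, had its ratio in CAST (0.68 to 1.08) above all other libraries (highest 0.60), with a difference of 0.65 ± 0.03. Cel (bile salt-activated lipase) differed by 0.51 ± 0.05 in CAST and -0.47 ± 0.08 in NZO on the log2 scale, and the NZO call was lost with the slope on Cpa1 fixed.

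The amylase genes lie on chromosome 3. Amy1, known as the salivary amylase gene, had medians between 2.19 and 14.6 TPM in 6 strains, 445 TPM in NOD (118 to 1226) and 1651 TPM in CAST (285 to 3780). At equal Cpa1 it was 90.3-fold higher in CAST (log2 6.5 ± 0.15, adjusted p = 3.54e-56) and 16.5-fold higher in NOD (4.04 ± 0.15, adjusted p = 3.15e-41), and it was lower in each of the other 6 strains, most in WSB (-2.65 ± 0.16). The mean against which these 6 were set holds CAST and NOD, which lowers their estimates, and the calls in AJ and NZO were lost with the slope on Cpa1 fixed at 1 (log2 -0.29 and -1.62, adjusted p = 0.339 and 0.229). Neither CAST nor NOD overlapped the other strains in ratio to Cpa1, since the highest library elsewhere stood at -5.74 (AJ) and the lowest NOD library at -4.24.

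Amy2b showed the same pattern at a higher level. It had medians of 19420 TPM in CAST and 7473 in NOD and of 78.8 to 283 in the other strains, and in CAST it exceeded Cpa1 in each of the 14 libraries (log2 ratio 0.40 to 2.11). Once added to the tested genes, a choice made after seeing the data, it was 48.2-fold higher in CAST (log2 5.59 ± 0.11) and 13.1-fold higher in NOD (3.71 ± 0.11) at equal Cpa1. Amy2a5, a pancreatic amylase, followed Cpa1 with a slope of 0.99 and was lower in WSB (log2 -1.34 ± 0.10, 2.52-fold, adjusted p = 1.96e-21). Its reads are shared: 44.3% of its 100-base windows occur in Amy2a2, Amy2a3 or Amy2a4, which have equal values to each other in every library. The sum of these 4 genes had its lowest median ratio to Cpa1 in WSB too (0.70), followed by CAST (0.98) and NOD (1.03), and the highest in 129 (1.77). For Amy1, 30.8% of windows occur in another gene, mainly the neighbouring Rnpc3, and for Amy2b 11.4%, in the Amy2a copies.

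Of the nucleases, Rnase1 (pancreatic ribonuclease) tracked Cpa1 with a mean of 2564 TPM and differences between -0.46 (WSB) and 0.53 (PWK). Dnase1 (deoxyribonuclease I) stayed low in all strains, with 0.52 to 4.67 TPM over all libraries, and did not follow Cpa1. Its level was highest in 129 (median 3.33 TPM) and PWK (3.36) and lowest in CAST (1.11), and at equal Cpa1 it differed by 0.70 ± 0.09 in 129 and -0.58 ± 0.09 in CAST.

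Among the granule and other secreted proteins, Sycn (syncollin, a zymogen granule membrane protein) was the most abundant, with a mean of 2566 TPM. In NZO its ratio to Cpa1 was -0.40, -0.34, -0.22 and 0.08, above all other libraries (highest -0.47), with a difference of 0.91 ± 0.11. In PWK the difference was -0.86 ± 0.12. With the slope fixed at 1 both were about as large (0.91 and -0.88) but did not pass the threshold (adjusted p = 1.0 and 0.258). Zg16 (zymogen granule protein) and Gp2 (the main glycoprotein of the granule membrane) were higher in CAST by 0.68 and 0.58, and all 5 genes of this group were lower in B6, with differences from -0.65 (Gp2) to -0.18 (Sycn), against 28.9% of all genes. The B6 direction depended on the reference: with Ctrb1 in place of Cpa1 0 of the 5 were lower and 3 higher (28.8% and 26.0% of all genes). When the slope on Cpa1 was fixed only Gp2 passed as lower, against 10.9% of all genes. Spink1, the trypsin inhibitor of the granule, was higher in NZO by 1.18 ± 0.18, with 57.2, 704 and 549 TPM in the females and 1265 in the male; without the male the difference was 0.46 and no longer passed the threshold (adjusted p = 0.0898), nor did it with the slope fixed at 1 (0.97, adjusted p = 1.0).

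The regulators were far less abundant than the enzymes, with means of 26.1 TPM for Bhlha15, 8.34 for Rbpjl, 3.57 for Ptf1a and 1.95 for Nr5a2. Rbpjl carried the only large strain difference below 0: in WSB it had 0.23, 1.45 and 4.25 TPM (lowest, median and highest), while B6, with a similar Cpa1 level, had 1.42, 8.12 and 52.7. Its ratio to Cpa1 in WSB, -12.5 to -10.7, lay below that of all 75 other libraries (lowest -10.2). At equal Cpa1 it was 5.79-fold lower in WSB (log2 -2.53 ± 0.14, adjusted p = 1.46e-29) and 2.10-fold higher in 129 (1.07 ± 0.13). Its partner Ptf1a differed in WSB by -0.22 ± 0.16 (adjusted p = 0.228), and the PTF1 promoter motifs given above are of the reference strain only. Ptf1a passed the threshold in NOD (-0.64 ± 0.19) and NZO (0.88 ± 0.26), and 1 AJ library listed it at 0. With the slope fixed at 1 neither passed (-0.64 and 0.99, adjusted p = 0.086 and 1.0), and with Ctrb1 in place of Cpa1 the NZO difference was 0.40 (adjusted p = 0.245). Nr5a2 was 2.15-fold higher in NZO (1.1 ± 0.18), and by the same 1.1 with the slope on Cpa1 fixed at 1, where it did not pass the threshold (adjusted p = 1.0). Bhlha15 was nearly constant, with strain medians from 22.1 to 31.6 TPM although Cpa1 medians ranged from 446 to 7478, and it was the 1 member whose strain effect missed the threshold (adjusted p = 0.0754).

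Cckar, the cholecystokinin A receptor through which the hormone stimulates secretion, had medians from 1.41 TPM in AJ to 38.8 in CAST and 40.02 in PWK. At equal Cpa1 it was 2.77-fold higher in CAST (log2 1.47 ± 0.16, adjusted p = 1.64e-13) and 1.77-fold higher in PWK (0.82 ± 0.24). The PWK call was lost with the slope fixed at 1 (0.76, adjusted p = 0.382) and with Ctrb1 in place of Cpa1 (0.35, adjusted p = 0.291). In CAST the ratio spread widely, from -8.30 to -4.43, and its 6 highest values were all of males.

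Counted by strain at equal Cpa1, 9 of 31 members were higher in 129 (background 27.1%) and 7 lower (background 19%). In AJ 4 were higher (background 21.9%) and 15 lower (27.6%), and in B6 5 higher (25%) and 21 lower (28.9%). CAST had 15 higher (25.9%) and 5 lower (31%), and NOD 8 higher (34.6%) and 9 lower (30.4%). NZO had 16 higher (21.6%) and 5 lower (15%), PWK 18 higher (24.2%) and 6 lower (22.9%), and WSB 6 higher (26.3%) and 18 lower (29.8%). With the slope on Cpa1 fixed at 1, 2 members were higher and 0 lower in NZO (0.257% and 0.184% of all genes). The counts were 2 and 3 in PWK (0.289% and 3.11%) and 3 and 3 in NOD (3.39% and 47.2%). They were 5 and 3 in 129 (76.3% and 0.368%) and 4 and 6 in AJ (99% and 0.0987%). B6 had 1 and 8 (0.335% and 10.9%), CAST 10 and 4 (0.717% and 84%) and WSB 4 and 4 (0.487% and 8%). The sign of the many small differences depended on the reference enzyme. With Ctrb1 in place of Cpa1, B6 had 17 higher and 5 lower (26.0% and 28.8% of all genes). NZO then had 8 and 12 (21.3% and 15%), and PWK 6 and 13 (23.8% and 23.5%). The 49 differences of 1 log2 unit or more kept their sign under every alternative, and each alternative again set a strain against the mean of the others.

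Of the 15 other acinar genes at equal Cpa1, 11 were higher and 2 lower in CAST (25.9% and 31% of all genes), 8 and 2 in PWK (24.2% and 22.9%), and 4 and 9 in WSB (26.3% and 29.8%). The counts higher and lower were 2 and 7 in 129 (27.1% and 19%), 3 and 5 in AJ (21.9% and 27.6%) and 2 and 5 in B6 (25% and 28.9%). They were 2 and 6 in NOD (34.6% and 30.4%) and 5 and 4 in NZO (21.6% and 15%). Serpini2, a pancreatic serpin, differed in 129 by -3.00 ± 0.14, and Cela3a, which belongs with the elastase genes, was higher in CAST by 8.52 ± 0.25. Other cell types varied by strain as well: the summed duct markers had their highest median in NZO (322 TPM, 229 to 914) and ran from 115 to 162 TPM elsewhere, and all 7 duct markers were higher in NZO at equal Cpa1, against 21.6% of all genes. Immune markers were highest in NOD (median 190 TPM, 12.9 to 1018). Of 8 endothelial and stromal markers at equal Cpa1, 8 were lower in B6 and 8 in CAST (28.9% and 31% of all genes), and 5 in 129 (19%). In NZO 7 were higher (21.6%), and in NOD 6 were higher (34.6%) and 1 lower (30.4%). The 3 other strains had calls in both directions. The part of these cell types in the members' differences was not tested.

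Across strains the sexes did not differ by a common amount: 0 of 32 members passed the threshold for sex in edgeR's quasi-likelihood test (background 4.01%), nor in any alternative that gave a value, and 0 had an unadjusted p under 0.05. The difference between the sexes depended on strain. NZO and PWK, with 1 library of a sex, were left out of the test for this, and in the remaining 82 libraries the strain by sex interaction passed for 30 of 32 members (background 5.9%), all but Prss1 and Dnase1. The median share of acinar transcripts was 15.8% in B6 females and 2.16% in B6 males, and 5.23% and 1.87% in 129. It was reversed in NOD, with 5.50% in females and 27.9% in males, and in WSB, with 4.83% and 16.99%. Sex-linked transcripts went against the label in 2 of the 10 NOD and 4 of the 16 WSB libraries, and without them the medians of females and males were 8.29% and 31.2% in NOD and 4.22% and 21.2% in WSB. Only in 129 did the sexes not overlap (2.94% to 7.30% and 0.898% to 2.62%), and there 6 of 10 libraries had sex-linked transcripts against their label. Without the 12 such libraries 30 members passed, against 17.6% of all genes. With Cpa1 in the model 0 of 31 did (background 0.401%), with 8 at an unadjusted p under 0.05.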

How the data were processed

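RNA-seq libraries of mouse islets were analysed from the tables of genes deposited for 91 libraries. Per the study's methods, the authors estimated the deposited expected counts and TPM (length-scaled, library-normalised) values with RSEM against GENCODE vM18 and mm10; the aligner is not given in the sources used here. The members and lists were chosen with earlier results of these data known. Expected counts were rounded and fitted with edgeR 4.0.16 in R 4.3.3 (quasi-likelihood, upper-quartile normalisation, strain and sex). Kept were protein-coding genes of GENCODE M21 above 0 in at least 85% of libraries, less the 10% of lowest variance (15204 of 21710). Each strain was contrasted with the unweighted mean of the others, with and without log2 Cpa1 as a covariate, and p-values were adjusted by Benjamini-Hochberg over all genes tested (threshold 0.05). The SE given for an edgeR estimate is the size of the estimate divided by the square root of its F statistic. The genes named were Cpa1, the member of highest mean TPM in each role, all trypsinogens, amylases, regulators and Cckar, the 10 members with the largest differences at equal Cpa1 and the 5 with the smallest slopes; others were named after their values were seen. Ratios to Cpa1 used TPM with no pseudocount, leaving out values at 0. TMM and median-ratio scaling, other filters, limma-voom (limma 3.58.1), DESeq2 1.42.0, other reference enzymes, and omission of libraries were tried. The slope fixed at 1 was fitted with limma, without weights, on log2 ratios of normalised counts to Cpa1. The scripts were tested on simulated counts.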

Additional observations from a re-analysis of the deposited data

Results flagged for a closer look

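In 9 of 44 groups of 4 to 10 libraries 1 library lay far from the others, where chance alone flags about 5% of groups. The log2 ratio to Cpa1 was higher than in the other libraries for Prss3 in NOD female 99 (-4.759), for Prss1 in the same library (-8.167), for Prss3 and Prss1 in PWK female 75 (-8.25 and -7.734), for Try10 in 129 male 81 (-5.118) and for Cckar in 129 male 83 (-7.605). The ratio of Ctrc was lower in 129 male 83 (-1.764) and in PWK male 68 (-0.9819). The share of acinar transcripts in NZO was lowest in female 86, with a log2 percentage of 0.3276.

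The effect of sex differed between strains for 30 of 32 members by the interaction term of the edgeR fit, against 5.9% of all genes, and for 0 of 31 with Cpa1 as a covariate, with 8 at an unadjusted p under 0.05.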

How the results depend on the processing

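Scaling, filters and tools left most counts within 1.5 times of those reported. With the slope on Cpa1 fixed at 1, which also changed the tool to limma, 17 members differed between strains, and 31 differences were higher and 31 lower. With Cpa1 as a covariate, 0 members passed the strain by sex interaction. The count lower in 129 was 3 without the libraries against their sex label, a setting that leaves out 6 of its 10 libraries, with Cpa1 at -1.69 in both fits and its SE at 0.58 and 0.90. The count higher in WSB was 10 without PWK male 69 and 12 without 6 libraries that stand apart, a choice made after seeing the data. Over the 49 differences of 1 log2 unit or more at equal Cpa1, 36 kept their call in every alternative, 10 lost it with the slope fixed at 1, and no direction was reversed. The cause of the changes was not tested. No paired analysis was possible because the libraries of different strains share no replicate numbers. Depth limits the members of lowest count, such as Ptf1a and Prss1 in AJ.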

Other observations

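Some members split the libraries of 1 strain. In CAST, Ctrc had a log2 ratio to Cpa1 of -2.37 to -1.88 in 6 libraries (numbers 2, 3, 4, 5, 7 and 8) and of -1.12 to -0.81 in the other 8. Amy2b was lowest in CAST females 38 and 39 (0.40 and 1.17), against 1.42 to 2.11 in the rest.

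In WSB, females 46, 47 and 48 stood apart in several enzymes. Their log2 ratio to Cpa1 was -1.21 to -1.09 for Cel against -0.50 to -0.23 in the other 13 WSB libraries, and -0.61 to -0.47 against -1.68 to -1.21 for Sycn. For Zg16 it was -0.87 to -0.58 against -1.69 to -1.36, and for Spink1 -3.16 to -2.62 against -4.12 to -3.66. These libraries were singled out after their values were seen.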
